A study of Mus musculus with 12 samples.

Results

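A set of 10 genes of the Notch pathway was followed in fetal mouse ovary: the receptors Notch1, Notch2 and Notch3, the ligands Jag1 and Dll4, the DNA-binding protein Rbpj, and the target genes Hes1, Hey1, Hey2 and Heyl. They were chosen by their Ensembl identifiers, each required to be on its stated chromosome, and all 10 were present among the 55416 genes of the input counts. In the table of anti-FMRP RNA immunoprecipitation (RIP) values, 5 of the 10 had rows, 22 of 14447. Ovaries of Fmr1 knockout fetuses (KO) were set against ovaries of wild-type fetuses (WT), all at E16.5, late in gestation, and the labels give the strain B6.129P2-Fmr1tm1Cgr/J for both genotypes. Each genotype had 3 input libraries, made from a portion of the ovary homogenate. It also had 3 RIP libraries, for which RNA was pulled down with an antibody to FMRP. FMRP, the product of Fmr1, binds mRNAs and controls their translation. One sample pooled 5 pairs of whole ovaries, so germ cells, somatic cells, vessels and blood were measured together. The labels do not say whether the KO fetuses were homozygous, and they call the samples biological replicates.

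Notch receptors are membrane proteins that are cut when a ligand on a neighbouring cell binds them. The freed intracellular part enters the nucleus and joins Rbpj, which turns on repressor genes of the Hes and Hey families. In the mouse ovary around birth, Jag1 of oocytes acts on Notch2 of the surrounding pregranulosa cells while germ cell clusters break up into follicles, and Dll4, Notch1 and the Hey genes are also active in blood vessels. Input libraries held 18880238 to 25707718 counted reads. Fmr1, the targeted gene, stood at 101 ± 19.8 CPM in KO input and 213 ± 8.47 CPM in WT input (SD, n = 3 each; adjusted p = 0.00775, edgeR), where CPM is the read count scaled to a common library size by the TMM method, which makes libraries comparable but not genes of different length.

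Promoter windows from 250 bases before to 50 bases after an annotated start were read from RefSeq (GRCm38.p6), to show where the letters that Rbpj reads occur in the pathway's own genes. The table held 8 windows for 7 of the 10 genes. None was held for Hes1, Hey1 or Heyl, so of the target genes only Hey2 could be searched. The core TGGGAA, searched on both strands, was in the windows of 2 of the 7 genes, Hey2 and Rbpj. It was in 3 of the 8 windows, against 25.6% of all 32851 windows, but 1 site lies in both of the overlapping Rbpj windows. The longer form GTGGGAA, which contains the core and was added after the core matches were seen, was in 1 window, that of Hey2, against 6.38% of all windows. Hey2 had 2 such matches, and 0.256% of all windows had 2 or more. They lay at -207 to -201, on the strand opposite to the gene, and at -4 to 3, on its own strand, counted from the annotated start as 1. The Hey2 window spans chr10:30842734-30843033 on the minus strand. The more distal of the 2 Rbpj windows, which overlap each other, spans chr5:53590096-53590395 on the plus strand and held the core at -149 to -144 and, on the opposite strand, at -65 to -60. These positions belong to GRCm38.p6 and cannot be set against the coordinates of the count files, which follow a later annotation. Capitals mark the matches. These are matches of letters and say nothing of binding.
Hey2: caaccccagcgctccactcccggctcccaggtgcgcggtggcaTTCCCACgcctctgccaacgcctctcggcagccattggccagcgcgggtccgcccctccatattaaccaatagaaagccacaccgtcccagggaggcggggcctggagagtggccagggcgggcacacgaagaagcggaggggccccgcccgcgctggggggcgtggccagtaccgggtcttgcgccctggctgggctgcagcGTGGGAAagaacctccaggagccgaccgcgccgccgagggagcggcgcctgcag
Rbpj: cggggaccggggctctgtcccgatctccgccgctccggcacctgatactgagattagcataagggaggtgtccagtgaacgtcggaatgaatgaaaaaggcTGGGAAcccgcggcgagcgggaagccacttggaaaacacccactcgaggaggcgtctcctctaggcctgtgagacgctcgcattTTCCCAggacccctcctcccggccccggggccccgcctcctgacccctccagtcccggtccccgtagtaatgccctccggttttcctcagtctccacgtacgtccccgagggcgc

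Among the receptors, Notch2 RNA was the most abundant and Notch1 the least in all 6 input libraries. Levels of different genes were compared as CPM per kilobase of annotated exon. Notch2 (ENSMUSG00000027878, chromosome 3, 97920843 to 98057677, 10782 exonic bases, coordinates as in the count files) had 28.6 ± 1.37 CPM per kb in KO input and 28.5 ± 2.82 CPM per kb in WT input (SD, n = 3 each). Notch3 (ENSMUSG00000038146, chromosome 17, 32339794 to 32385826) had 17.4 ± 0.347 CPM per kb in KO input and 17.8 ± 0.777 in WT input. For Notch1 (ENSMUSG00000026923, chromosome 2, 26347915 to 26406675) the values were 5.14 ± 0.475 in KO and 5.10 ± 0.213 in WT. Notch2 thus made up 55.9% ± 0.748 of the summed per-length level of the 3 receptors in KO and 55.4% ± 1.54 in WT, and the groups overlapped (exact permutation p = 0.7, two-sided, where 3 against 3 libraries allow no p below 0.1).

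Of the ligands, Jag1 (ENSMUSG00000027276, chromosome 2, 136923376 to 136958564) lay far above Dll4 (ENSMUSG00000027314, chromosome 2, 119156265 to 119166443). Jag1 averaged 11.4 ± 1.09 CPM per kb in KO libraries and 11.6 ± 0.681 in WT libraries, and Dll4 averaged 1.67 ± 0.219 in KO libraries and 1.71 ± 0.410 in WT libraries (SD, 3 libraries each). The Jag1 level per kb was 6.68, 6.68 and 7.24 times that of Dll4 in the KO libraries and 7.53, 8.39 and 5.24 times in the WT libraries. The groups overlapped in this ratio (exact permutation p = 0.9).

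Rbpj (ENSMUSG00000039191, chromosome 5, 53623494 to 53814704) averaged 5.18 ± 0.338 CPM per kb in KO input and 5.33 ± 0.377 in WT input. Hes1 (ENSMUSG00000022528, chromosome 16, 29883202 to 29886614), a repressor of the helix-loop-helix class, was the most abundant target on this scale, at 9.92 ± 0.765 CPM per kb in KO and 11.7 ± 1.603 in WT. Heyl (ENSMUSG00000032744, chromosome 4, 123127349 to 123143668) averaged 4.64 ± 0.112 in KO and 4.19 ± 0.279 in WT. The related Hey1 (ENSMUSG00000040289, chromosome 3, 8728419 to 8732316) averaged 3.79 ± 0.602 in KO and 4.01 ± 0.336 in WT. Hey2 (ENSMUSG00000019789, chromosome 10, 30708355 to 30718797) was the lowest of the 10, at 0.931 ± 0.339 in KO and 0.765 ± 0.0327 in WT (SD over 3 libraries).

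Placed among the 23698 genes tested in the input, Notch2 stood above 93.3% of genes in mean CPM per kb, Notch3 above 87.8%, Jag1 above 80.5% and Hes1 above 79.2%. Rbpj and Notch1 stood above 62.8% and 62.1%, Heyl above 58.6%, Hey1 above 55.8%, Dll4 above 39.5% and Hey2 above 27.5%. In this order, 6 of the 9 pairs of neighbours kept the same order in all 6 libraries. These were Notch2 over Notch3 (1.62-fold), Notch3 over Jag1 (1.53-fold), Hes1 over Rbpj (2.04-fold), Notch1 over Heyl (1.16-fold), Hey1 over Dll4 (2.32-fold) and Dll4 over Hey2 (2.03-fold). Each of these 6 had an exact sign permutation p of 0.0313, two-sided and the smallest that 6 libraries allow (adjusted p = 0.0469 over the 9 pairs). The order was taken from these same libraries. A pair in the same order in all 6 must give this p, so the p adds nothing to the count. Jag1 and Hes1 did not differ beyond their spread (Jag1 higher in 4 of 6 libraries, exact p = 0.25), nor did Rbpj and Notch1 (5 of 6, exact p = 0.156) or Heyl and Hey1 (5 of 6, exact p = 0.125). A length summed over all annotated transcripts sets this scale: Notch1 and Rbpj had the longest exonic lengths, 14232 and 12750 bases. In CPM without length, Hes1 (22.01) lay below Rbpj (67.03), the other way round, and Heyl (22.6) lay slightly above Hes1. Notch1 (72.9) lay above Jag1 (67.1) in 5 of 6 libraries, also the other way round, and Jag1 lay above Rbpj in only 3 of 6. The place of Jag1 above Notch1 and Rbpj thus depends on the exonic lengths used.

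**Figure D1:**
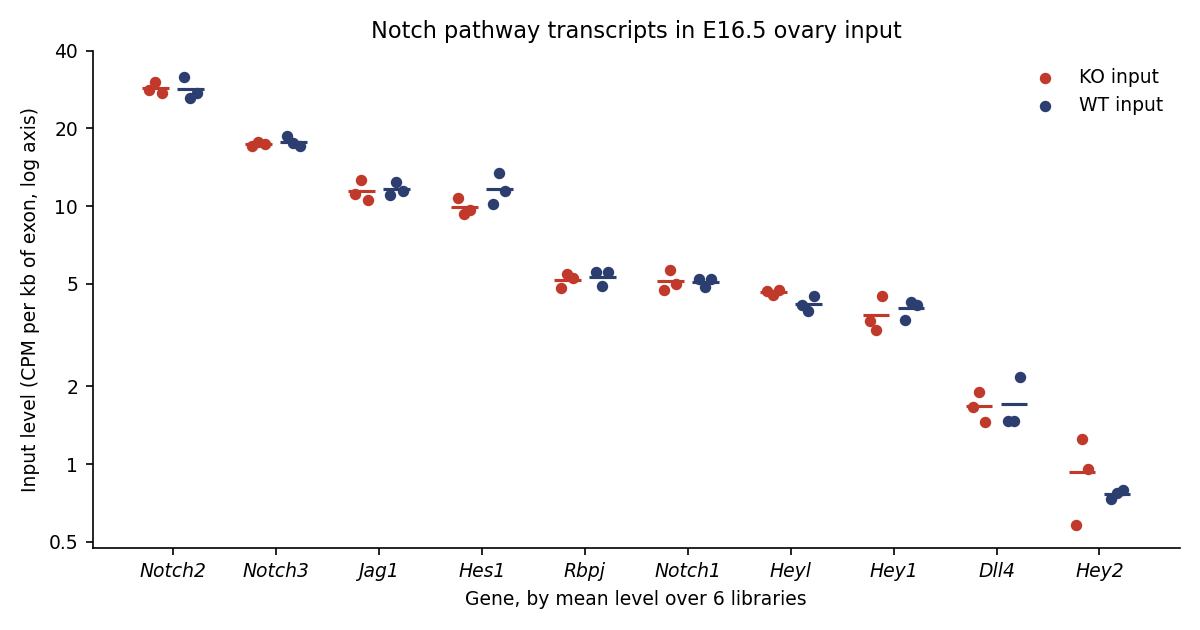
Input level of each gene in CPM per kilobase of exon (log axis), ordered by the mean over 6 libraries. Points are libraries (KO input left, WT input right, 3 each) and bars are group means; Notch2 lies between 26.3 and 31.7 CPM per kb and Hey2 between 0.578 and 1.256, and Heyl is the gene whose KO points all lie above its WT points.

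The comparison of genotypes asked whether these transcripts differed in abundance in ovaries labelled Fmr1 knockout. Fmr1 RNA was lower but not gone there, with 1644 to 2968 reads in KO libraries and 4664 to 5177 reads in WT libraries, and FMRP itself was not measured in these files. The comparison is therefore between labelled genotypes, not between ovaries shown to have and to lack FMRP. None of the 10 genes passed (edgeR's quasi-likelihood test, Benjamini-Hochberg adjusted p under 0.05 over all genes), where 0.0422% of the 23698 tested genes did, and none reached an unadjusted p under 0.05, where 5.9% of tested genes did. DESeq2 also called 0 of the 10. The log2 difference, KO over WT, was positive for 4 genes and negative for 6, with a median of -0.019, beside -0.0020 over all tested genes. Since whole ovaries were measured, fewer cells of a type and less RNA per cell cannot be told apart in any of these values.

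The receptors were measured closely. Notch2 had 304, 325 and 296 CPM in the KO libraries, against 342, 284 and 296 CPM in the WT libraries. The groups overlapped throughout, and the fitted fold, KO over WT, was 1.00 with a 95% interval of 0.909 to 1.11 (adjusted p = 0.995, edgeR). Notch3 had 138, 143 and 141 CPM in KO and 151, 142 and 138 CPM in WT, with a fold of 0.978 and an interval of 0.892 to 1.07. Notch1 had 67.6, 80.7 and 71.2 CPM in KO and 74.4, 69.1 and 74.3 CPM in WT. KO replicate 2 was its highest library and KO replicate 1 its lowest, so that WT lay within the KO range, and the fold was 1.01 (0.901 to 1.13). All 3 receptor intervals lay between 0.892 and 1.13 times the WT level. These intervals are for single genes, not adjusted for the number of genes.

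Jag1 had 64.8, 73.8 and 61.5 CPM in KO, against 64.2, 72.0 and 66.5 CPM in WT. The highest and the lowest library were both KO, and the fold was 0.988 (0.878 to 1.11; adjusted p = 0.992, edgeR). Dll4 rested on 106 to 177 reads per library and had 6.41, 7.30 and 5.62 CPM in KO, against 5.64, 5.67 and 8.39 CPM in WT. Its highest value was WT replicate 3, and the interval of the fold was wide, 0.740 to 1.31 around 0.986. Rbpj had 61.4, 69.8 and 67.2 CPM in KO and 70.7, 62.4 and 70.8 CPM in WT, a fold of 0.973 (0.868 to 1.09).

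The 4 target genes had the 4 estimates farthest from 0, and their signs differed. Hes1 had 21.98, 19.05 and 19.6 CPM in KO, against 20.8, 27.3 and 23.3 CPM in WT. WT replicates 2 and 3 lay above all KO libraries, and WT replicate 1 lay below KO replicate 1, so that the groups overlapped. Its fold of 0.849 had an interval of 0.709 to 1.02 (log2 -0.24, SE 0.12, unadjusted p = 0.0729, adjusted p = 0.877, edgeR), the smallest p of the 10 genes. Without WT replicate 2 the log2 difference was -0.13, and without WT replicate 1 it was -0.32.

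Heyl had 23.9, 23.1 and 24.2 CPM in KO, against 21.2, 20.1 and 22.9 CPM in WT. It was the 1 gene of the 10 whose groups did not overlap, where 10.9% of all tested genes did not, and the gap between the lowest KO library and the highest WT library was narrow beside the spread within WT. The fold was 1.11 (0.943 to 1.31; adjusted p = 0.959, edgeR). The level of Hes1 per kb was 2.31, 2.07 and 2.03 times that of Heyl in KO and 2.46, 3.41 and 2.56 times in WT, without overlap. This ratio was picked after the values were seen, and its exact permutation p of 0.1 is the smallest that 3 against 3 libraries allow (adjusted p = 0.7 over the 7 ratios computed). Hey1 had 11.7, 10.8 and 14.6 CPM in KO and 11.8, 13.9 and 13.6 CPM in WT. Both its lowest and its highest library were KO, with a fold of 0.943 (0.760 to 1.17).

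Hey2 had 2.66, 5.77 and 4.40 CPM in KO, against 3.35, 3.53 and 3.65 CPM in WT. The 3 WT libraries lay close together inside the range of the KO libraries. The reads numbered 51, 139 and 83 in KO and 85, 81 and 77 in WT, and the coefficient of variation was 36.5% among KO libraries and 4.27% among WT libraries, where counting alone would give about 10.8%. The fold was 1.22 (0.850 to 1.77; adjusted p = 0.967, edgeR). Without KO replicate 2 the log2 difference was 0.0066, against 0.29 with all libraries, and without KO replicate 1 it was 0.54, so single KO libraries set its size.

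**Figure D2:**
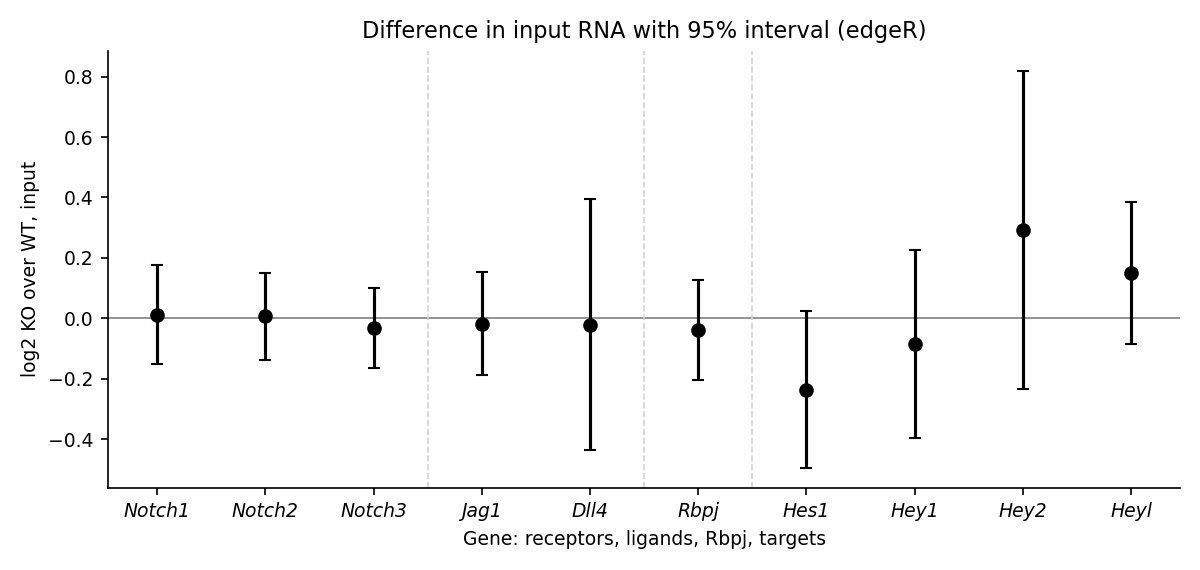
Difference in input RNA, KO over WT, on the log2 scale for each gene (points) with the 95% interval of the edgeR fit (bars), in the order receptors, ligands, Rbpj and targets. All 10 intervals include 0; they are narrowest for Notch3 (-0.17 to 0.10) and widest for Hey2 (-0.23 to 0.82).

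Across the 6 input libraries some pairs of genes varied together and others in opposite directions. Of the 45 pairs of genes, the highest Pearson correlations of log2 CPM were those of Notch1 with Rbpj (0.82), Notch1 with Hey2 (0.80) and Notch2 with Notch3 (0.74), and the lowest were those of Notch2 with Hey1 (-0.75) and Hes1 with Heyl (-0.68). The points of a pair share the 6 libraries and their scaling, and these are the extremes of 45 values, given as a description. Among the KO libraries, KO replicate 2 held the highest value of 7 of the 10 genes (Notch1, Notch2, Notch3, Jag1, Dll4, Rbpj and Hey2) and the lowest value of the other 3 (Hes1, Hey1 and Heyl). The shares over all tested genes were not computed, so whether this is particular to these genes cannot be told.

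Rows were listed for 5 of the 10 genes in the RIP table, whose values are fold enrichments computed by the authors. What they are relative to is not given in the sources used here. Notch2 had 10 rows, Notch3 had 9, and Rbpj, Hes1 and Heyl had 1 each, while Notch1, Jag1, Dll4, Hey1 and Hey2 had none. In the table, 88 of the 7525 genes (1.17%) had 9 or more rows. That cut was taken from the row count of Notch3, and genes were not matched for input level or number of exons. Presence in the table went with input level: of the genes within 0.5 of the log2 CPM of Notch2, 87.2% had a row, and of those near Hey2, 6.38% did. Notch1 and Jag1 had no row at levels where 70.0% and 68.1% of genes had one, and Rbpj, at a level where 68.2% did, had 1. These levels are CPM without length, and exonic length, greatest in Notch1 and Rbpj, was not matched. Hes1 and Heyl had rows at levels where 43.2% and 43.7% of genes did. Dll4 and Hey1 were without a row at levels where 13.5% and 27.9% of genes had one.

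**Figure D3:**
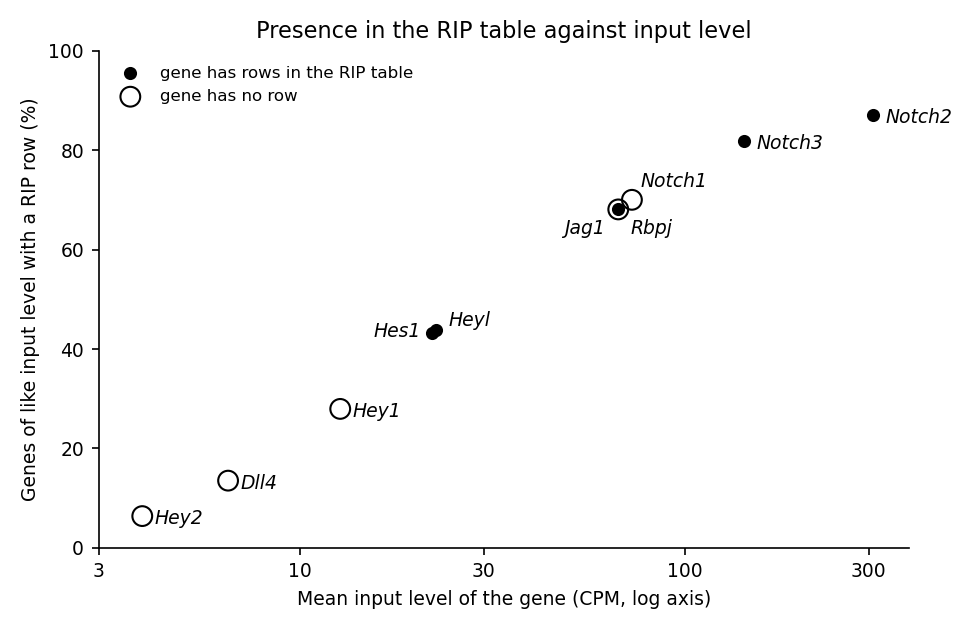
Mean input level of each gene in CPM (log axis) against the percentage of genes of like input level, within 0.5 on the log2 scale, that have at least 1 row in the RIP table. Filled points are genes with rows and open rings are genes without; Notch1 (70.0%) and Jag1 (68.1%) are open rings beside the filled point of Rbpj (68.2%).

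The RIP comparison asked whether the FMRP antibody recovered these transcripts differently from KO and WT ovaries. How much FMRP remained in the KO ovaries is not given in the sources used here. Differences were tested as KO minus WT on log2(value + 1) with limma, over the 14365 rows whose mean was 1 or more, which took in all 22 rows of the 5 genes. None of the 22 rows passed (smallest adjusted p = 0.490), where 0.0% of all tested rows passed. Unadjusted p was under 0.05 in 3 rows, all higher in KO, where 8.85% of all rows reached it in either direction and 2.88% were higher in KO. Group means were higher in KO in 13 of the 22 rows, beside 50.9% of all rows. The median log2 difference of the 22 rows was 0.10, beside 0.0021 over all tested rows. The rows of Notch2 and Notch3 make up 19 of the 22, and rows of 1 gene are listed under the same identifier and come from the same libraries.

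Hes1 had the smallest p of these rows. Its fold enrichment was 2.18, 2.78 and 2.47 in the KO libraries, against 1.99, 1.54 and 1.80 in the WT libraries. Every KO library lay above every WT library, and the ratio of the means was 1.39. The log2 difference was 0.32 (SE 0.11, 95% interval 0.056 to 0.59, unadjusted p = 0.0241, adjusted p = 0.490, limma). Like all RIP log2 differences here, it is on log2(value + 1) and is not the log2 of the ratio. The genotypes did not overlap in 4 of the 22 rows, where 15.2% of all tested rows did not. In all 4 the KO libraries lay above, as in 6.77% of all tested rows. The same gene had 20.2 ± 1.56 CPM in KO input and 23.8 ± 3.27 CPM in WT input (SD over 3 libraries), so that its RIP estimate and its input estimate had opposite signs, and neither passed its test. Since what the fold enrichment is relative to is not given, these estimates may not be independent.

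Notch2 held the highest fold enrichments of the 5 genes. Its rows are numbered here from the highest mean to the lowest, and where each lies on the transcript is not given. Row 1 had 4.57, 3.81 and 6.66 in KO, against 4.38, 7.04 and 7.48 in WT. Its mean of 5.65 was above 94.996% of all rows, and the groups overlapped widely (log2 difference -0.28, SE 0.32, adjusted p = 0.836, limma). With 1 library left out the difference ran from -0.49 (without WT replicate 1) to -0.13 (without KO replicate 2), and with quantile normalization it was -0.44. The other 9 rows had means from 1.25 to 2.55, on both sides of the table's median row of 1.77.

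The 10 Notch2 rows did not share a direction: group means were higher in KO in 5 rows and lower in 5. Row 3 had 2.94, 2.79 and 2.08 in KO, against 1.99, 1.82 and 1.74 in WT (unadjusted p = 0.0353, adjusted p = 0.518, limma). Row 7 had 1.69, 2.22 and 1.98 in KO, against 1.15, 1.595 and 1.595 in WT (unadjusted p = 0.0448, adjusted p = 0.555). In both rows all KO libraries lay above all WT libraries. Row 8 also had groups that did not overlap, by a margin smaller than the digits printed, at 1.89, 1.67 and 1.89 in KO and 1.03, 1.67 and 1.66 in WT. Row 2, by contrast, averaged 2.26 ± 0.173 in KO and 2.83 ± 0.870 in WT (SD over 3 libraries), with the highest library, WT replicate 2, at 3.69. Averaged over its 10 rows within each library, Notch2 had 2.20, 2.01 and 2.44 in KO and 1.80, 2.41 and 2.40 in WT, which overlapped.

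The 9 Notch3 rows had means from 1.56 to 2.34, all groups overlapped, and group means were higher in KO in 6 of them. Row 1 showed the spread within a genotype: it had 2.78, 1.47 and 3.31 in KO and 1.40, 3.27 and 1.83 in WT. With all libraries row 4 had the largest difference, with 2.30, 2.39 and 3.06 in KO and 1.56, 1.86 and 2.55 in WT (log2 difference 0.27, SE 0.16, adjusted p = 0.689, limma). Its difference ran from 0.16 (without WT replicate 1) to 0.41 (without WT replicate 3). Without KO replicate 2, row 3 had a larger difference (0.41) than row 4 (0.31). Row 6 was larger than row 4 without KO replicate 3 (0.25 against 0.17). Row 3 was larger without WT replicate 1 (0.29 against 0.16), as was row 1 without WT replicate 2 (0.39 against 0.25). In 4 of the 9 rows the same 6 values were also listed under ENSMUSG00000097305, a gene on the opposite strand whose exons share 488 bases with those of Notch3. That gene had a mean of 24.2 input reads per library, against 3126 for Notch3. In Notch2, row 5 was likewise listed under ENSMUSG00000106427, a gene on the same strand that shares 541 exonic bases.

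Rbpj had a fold enrichment of 0.992, 1.56 and 1.17 in KO, against 1.24, 1.48 and 1.28 in WT, and its mean of 1.29 was above only 9.82% of all rows. Its WT values lay inside the KO range (log2 difference -0.066, SE 0.10, adjusted p = 0.881, limma). Heyl had 2.07, 2.47 and 2.87 in KO, against 1.33, 3.19 and 1.11 in WT. A pair of its WT libraries lay below all KO libraries and WT replicate 2 lay above them, so that the groups overlapped and the log2 difference of 0.33 had an SE of 0.26 (adjusted p = 0.759, limma). It was 0.64 without WT replicate 2 and 0.15 without WT replicate 3.

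**Figure D4:**
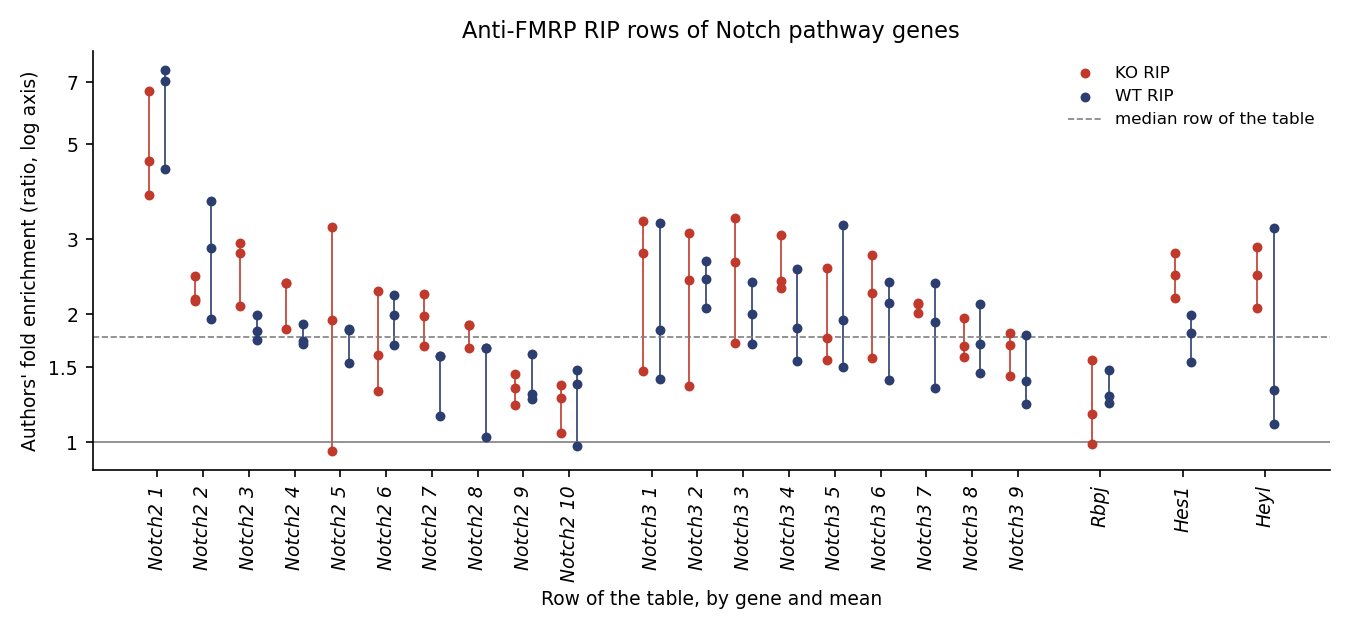
Authors' fold enrichment (ratio, log axis) in each RIP library for the 22 rows, ordered by gene and falling mean; points are libraries (KO left, WT right, 3 each) and vertical lines span a group. The solid line is at 1 and the dashed line at the median row of the table, 1.77; Notch2 row 1 lies between 3.81 and 7.48, and the groups do not overlap in Hes1 and in Notch2 rows 3, 7 and 8.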

How the data were processed

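For the input, raw read counts of each gene were deposited by the authors without normalization. Per the file headers they were made with featureCounts 1.6.3 over exons of the Ensembl release 104 annotation, with no option for strand, so reads of overlapping or antisense genes cannot be told apart, and reads that touch exons of 2 genes are by default not counted. Other genes shared 9.76% of the exonic bases of Notch1, 6.03% of Notch3, 5.56% of Dll4 and 5.02% of Notch2, and none of the remaining members. The submitters' processing notes name GRCm38, MACS2 2.1.0, BWA 0.7.12 and FastQC, as well as DESeq2 1.26.0, without saying what each was used for. The aligner behind the counts is not given in the sources used here. Median merged exons ran from 114 bases (Jag1) to 1152 (Hey2). Coordinates are those of the count files, whose annotation release is later than that build. RIP values are a linear ratio (fold enrichment) deposited by the authors, and their read depth is unknown; a table of peak comparisons named in the labels was not analysed here.

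Counts were tested with edgeR 4.0.16 in R 4.3.3 (TMM, filterByExpr, robust quasi-likelihood) on all genes. Ratios were tested with limma 3.58.1 on log2(value + 1), which understates changes of low values, with columns centred on their medians, keeping rows whose mean was 1 or more. Both are KO against WT. SEs in edgeR are the estimate over the square root of F. Single values used two-sided exact permutation tests. Steps were tested on simulated data. Replicates differed by more than sampling noise (chi-square per degree of freedom 7.03 to 12.1), and p-values reflect only how these pools of ovaries varied.

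Names come from the rule that chose the members; all 10 lie on the same chromosome in the RefSeq table (GRCm38.p6), which holds 0 Ensembl identifiers. Lists of further pathway genes and cell type markers by symbol were therefore not analysed here, and the tissue label was not checked against markers. All 10 members are named whatever they showed, and likeness was sought among them alone. Members and lists were chosen with earlier results of these data known.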

Additional observations from a re-analysis of the deposited data

How the results depend on the processing

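None of the 10 genes in input and none of the 22 RIP rows passed in any of the alternatives run, where adjusted p ranged from 0.723 to 1.00 in input (edgeR, DESeq2) and from 0.473 to 1.00 in RIP (limma). The 10 genes called over the whole input became 113 with no low-count filter, 37 with DESeq2, 20 with the replicate block and 5 to 37 with 1 library left out (37 without KO replicate 1, 28 without WT replicate 2, 5 without KO replicate 2); the cause was not tested. The 0 RIP rows became 1 with no filter on low values, a row of no member. With rows of a mean of at least 4, only Notch2 row 1 could be tested. Of the 9 neighbours in level, 6 kept their order, and 6 to 7 with 1 library left out. Pairing by replicate number found no support: for numbers 1, 2 and 3, the KO and WT deviations from their group means had correlations of -0.071, -0.034 and -0.044 over input genes, and of -0.60, -0.34 and -0.22 over RIP rows. The replicate block changed no call of a member. No estimate below was called, and each changed sign with some library left out, over the range given. In input, log2 differences ran from -0.065 to 0.066 (Notch1), -0.047 to 0.090 (Notch2), -0.059 to 0.0041 (Notch3), -0.097 to 0.042 (Jag1), -0.12 to 0.19 (Dll4), -0.096 to 0.011 (Rbpj) and -0.21 to 0.0046 (Hey1). In RIP they ran from -0.19 to 0.37, -0.078 to 0.037 and -0.13 to 0.038 (Notch2 rows 5, 9 and 10), and from -0.030 to 0.40, -0.26 to 0.15, -0.27 to 0.12, -0.050 to 0.25, -0.017 to 0.24 and -0.082 to 0.094 (Notch3 rows 1, 2, 5, 6, 7 and 8), and from -0.16 to 0.0064 (Rbpj). Notch2 row 10 was 0.0036 with quantile normalization. Hey2 and Dll4 had the fewest input reads, and counting alone would give them a coefficient of variation of about 10.8% and 8.38%. Between libraries it was 36.5% in KO and 4.27% in WT for Hey2, and 13.1% in KO and 24.1% in WT for Dll4. Whether depth limits them was not tested.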
